A study of Mus musculus with 14 samples.

Results

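The MHC class II genes and their master regulator were followed in mouse bone marrow-derived macrophages, in the presence or absence of the histone methyltransferase Ezh2 and of medium conditioned by a liver cancer cell line. The set held 10 genes, matched by symbol among the 25239 gene symbols of the count table: H2-Aa, H2-Ab1, H2-Eb1, H2-DMa, H2-DMb1, H2-DMb2, H2-Oa, H2-Ob, Cd74 and Ciita. Counts of the distinct exons of each gene were summed. The macrophages were grown from the bone marrow of Ezh2fl/fl;LysM-Cre+/- mice (Ezh2 KO) or of littermate controls (WT) for 7 to 10 days with 20% medium from L929 cells. They were then kept for 24 h in DMEM complete medium (control) or in conditioned medium of Hepa1-6, a mouse liver cancer cell line (CM). There were 4 WT control, 4 WT CM, 3 KO control and 3 KO CM libraries. LysM-Cre acts from the lysozyme 2 locus in myeloid cells, so Ezh2 is lost only where and when Cre has acted, and the labels do not give the alleles that the littermate controls carry. Whether a group's libraries came from separate animals or cultures is not in the labels. The p-values therefore measure only how far these libraries spread, which may be technical. The age and sex of the mice are not given in the sources used here.

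MHC class II molecules are surface proteins of antigen-presenting cells that show peptides from endocytosed proteins to CD4+ T cells. In the mouse H2-Aa and H2-Ab1 encode the alpha and beta chains of I-A, and H2-Eb1 encodes the beta chain of I-E. Cd74, the invariant chain, occupies the peptide groove during transport, the H2-DM heterodimer (H2-DMa with H2-DMb1 or H2-DMb2) removes its remnant and loads peptide, and H2-O (H2-Oa with H2-Ob) restrains H2-DM. Ciita is the coactivator that these genes share. It binds no DNA itself but docks on factors that sit on the X and Y boxes of class II promoters, the RFX complex, CREB and NF-Y, and it is induced in macrophages by interferon gamma.

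The shared promoter layout is shown here because docking on it is the known route by which Ciita acts on the class II genes. RefSeq promoter windows of 300 bases (250 before to 50 after the start, build GRCm38.p6) were at hand for 7 of the members, and the Y box core TGATTGG was found in 6 of them. The member with a window but without this core was H2-DMa. There was no window for H2-Ab1, Cd74 and Ciita, so their promoters were not searched. Both strands were searched, and each match lay on the strand of the gene. The stretches below are 87 bases each, written 5′ to 3′ on the strand of the gene. Capitals mark the Y box and, where there is one, the upstream X box core, searched as AAC, any 2 bases, then ATGATG.
H2-Eb1, chr17:34305746-34305832 (+ strand): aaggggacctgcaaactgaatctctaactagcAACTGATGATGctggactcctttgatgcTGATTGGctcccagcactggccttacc
H2-DMb1, chr17:34153068-34153154 (+ strand): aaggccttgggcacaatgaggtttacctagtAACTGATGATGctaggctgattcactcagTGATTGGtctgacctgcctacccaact
H2-DMb2, chr17:34145097-34145183 (+ strand): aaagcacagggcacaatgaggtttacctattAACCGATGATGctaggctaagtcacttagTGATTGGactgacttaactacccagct
H2-Ob, chr17:34238786-34238872 (+ strand): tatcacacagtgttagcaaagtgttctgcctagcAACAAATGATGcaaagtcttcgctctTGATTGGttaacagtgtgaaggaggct
H2-Aa, chr17:34287847-34287933 (− strand): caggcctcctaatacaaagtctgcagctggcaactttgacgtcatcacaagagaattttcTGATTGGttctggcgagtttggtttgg
H2-Oa, chr17:34092274-34092360 (+ strand): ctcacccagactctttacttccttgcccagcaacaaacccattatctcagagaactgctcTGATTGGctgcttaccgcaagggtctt

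The X box letters were found in H2-Eb1, H2-DMb1, H2-DMb2 and H2-Ob, 15 to 18 bases upstream of the Y box. The window of H2-DMa held neither pattern. Of 32851 promoter windows of the same length, 7.82% held the Y box letters, 0.137% the X box letters and 0.0274%, or 9 windows, both. The X box letters were chosen after these sequences had been seen, and the 2 patterns do not overlap. A match is a description of the letters and not of a bound site. H2-DMb1 and H2-DMb2 carry near-identical stretches, as the lines above show, and the genes are close copies of each other that lie next to each other on chromosome 17. Reads shared between them may therefore have been counted on either gene.

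All members but Cd74 and Ciita lie within the class II region of chromosome 17, between 34092379 (start of H2-Oa) and 34316674 (end of H2-Eb1) in GRCm38. Cd74 lies on chromosome 18 (60803849 to 60812652) and Ciita on chromosome 16 (10480014 to 10531064). The libraries held 40249866 to 85774436 counts on distinct exons. WT libraries 3 and 4 of both media were the deepest, at 80415111 counts or more, and stood apart from the other 10 in exon coverage in an earlier look at these data. The labels name no batch, so this grouping is inferred, and WT libraries 1 and 2 are given as a separate comparison where it changes a value. Ezh2 itself was read from its 81- and 85-base exons. They were chosen after their values had been seen, so the reading is no independent check of the labels. Per base these exons held 94.0% to 169.5% of the coverage of the other Ezh2 exons in the 8 WT libraries and 2.1% to 31.7% in the 6 KO libraries. Total Ezh2 levels, which the remaining exons still supply, were 23 ± 2.89 (SD, n = 4) in WT control, 35.7 ± 3.27 (n = 4) in WT CM, 18.6 ± 0.288 (n = 3) in KO control and 27.1 ± 2.22 (n = 3) in KO CM, in CPM (counts scaled by library size and TMM factors). In KO against WT total Ezh2 was -0.31 ± 0.10 log2 (SE) in control medium (edgeR adjusted p = 0.0761) and -0.40 ± 0.10 in CM (0.0334). Macrophage markers were abundant in every group, with a summed level of 30300 to 35800 CPM in WT control, 29400 to 32400 in WT CM, 21300 to 22000 in KO control and 19200 to 19900 in KO CM. Most of the sum and of its difference by genotype was Lyz2, the gene at the Cre locus (-1.10 ± 0.07 log2 in KO control medium, edgeR adjusted p = 9.46e-07). Of the 8 macrophage markers 2 were higher and 2 lower in CM in each genotype. Among all tested genes 19.3% were higher and 18% lower in WT CM, and 20% and 18.2% in KO CM. Adgre1, the F4/80 antigen, was -0.69 in WT and -0.96 in KO, and Csf1r, the receptor for macrophage colony-stimulating factor, was -0.45 and -0.57. Itgam was 1.30 and 1.44 and Fcgr1 0.52 and 0.60. Their part in the class II result was not tested.

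All 10 members passed the filter on low counts and were tested among 13311 genes. Levels compared between genes are also divided by exon length (CPM per kb). That length sums all distinct exons of a gene, alternative ones included, such as 2164 bases for H2-DMa and 1284 for H2-DMb1. The order of genes therefore depends on the annotated exons. In WT control medium Cd74 stood highest at 351 ± 28.8 CPM per kb (SD, n = 4), above 98.7% of the tested genes. H2-Ab1 (61.7 ± 5.12) and H2-Aa (56.2 ± 6.46) came next and overlapped, as did H2-DMb1 (35.1 ± 3.59) and H2-Eb1 (32 ± 3.62) after them. H2-DMa reached 12.7 ± 1.24, and Ciita (2.95 ± 0.465) and H2-DMb2 (2.77 ± 1.15) overlapped well below it. H2-Ob at 0.458 ± 0.0396 and H2-Oa at 0.198 ± 0.0554 CPM per kb were the lowest, with 2 to 28 raw counts of H2-Oa in a library. H2-Ob stood above 14.7% and H2-Oa above 8.97% of the tested genes, whereas H2-Eb1, the lowest of the classical chains, stood above 84.2%.

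**Figure D1:**
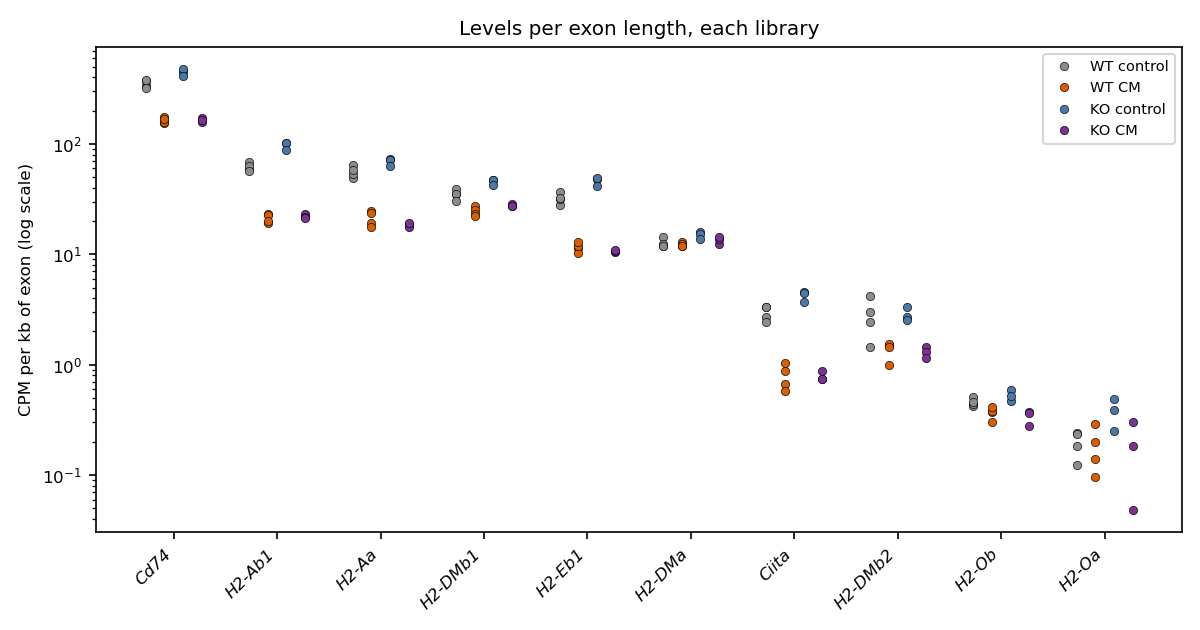
Levels of the 10 genes in CPM per kb of exon on a log scale, 1 point for each of the 14 libraries, coloured by group and ordered by the WT control mean. Cd74 is highest in all 4 groups and H2-Oa and H2-Ob lowest; the orange (WT CM) and purple (KO CM) points of Ciita, H2-Aa, H2-Ab1, H2-Eb1 and Cd74 lie below the control points.

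The first comparison asked what tumour-conditioned medium does to these genes in WT macrophages. The classical chains, the invariant chain and Ciita were all lower in CM, by 2.15- to 3.79-fold, whereas H2-DMa, the alpha chain of the peptide loader, did not pass the test. Of the 10 members 7 were lower and 0 higher (edgeR quasi-likelihood test, Benjamini-Hochberg adjusted p below 0.05). Of all tested genes 18% were lower and 19.3% higher by the same rule. DESeq2 also gave 7 and 0 for the members, where it called 19.7% of genes lower, and edgeR gave 0 higher at an unadjusted p below 0.05. The median log2 change was -1.07 over the members and -0.01 over all tested genes. Because these are bulk samples, fewer cells that make class II and less class II RNA per cell cannot be told apart.

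Among the classical chains, H2-Ab1 stood at 70.1, 81.3, 75.4 and 67.5 CPM in WT control libraries 1 to 4 and at 23.2, 27.8, 26.9 and 23.8 in WT CM libraries 1 to 4. All 4 control libraries lay far above all 4 CM libraries, and the change was -1.53 ± 0.08 log2 (SE, edgeR adjusted p = 5.03e-10). H2-Aa, its partner chain, stood at 55, 60.8, 72.1 and 65.9 CPM in control medium and at 21.9, 20, 28 and 26.5 in CM. The groups did not overlap, and the change was -1.39 ± 0.10 (edgeR adjusted p = 3.77e-08). H2-Eb1 fell from 46.2, 52.7, 61 and 53.7 CPM to 19.2, 17.1, 20.1 and 21.6, a change of -1.45 ± 0.09 (edgeR adjusted p = 3.52e-09). H2-Ea, which would encode the alpha chain of I-E, had 0 counts in every library. Several inbred mouse strains are known to lack H2-Ea expression, and the strain is not given in the sources used here.

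Cd74 stood at 472, 521, 540 and 454 CPM in WT control medium and at 218, 222, 248 and 236 in CM, a change of -1.10 ± 0.07 (edgeR adjusted p = 3.38e-09). It remained by far the most abundant member. Ciita stood at 20.3, 20.3, 16.3 and 14.8 CPM in control medium and at 6.27, 5.3, 4.08 and 3.5 in CM. Every CM library was below every control library, and the change, -1.92 ± 0.16 (edgeR adjusted p = 1.37e-07), was the largest of the 10 in size.

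The peptide loader changed less. H2-DMb1 fell from 44.8, 50.6, 45.5 and 39.3 CPM to 35.3, 32.3, 30 and 28.8, a log2 change of -0.51 ± 0.08 (edgeR adjusted p = 7.47e-05). H2-DMa, the alpha chain that pairs with it, stood at 25.9, 31.4, 26.8 and 25.6 CPM in control medium and at 25.8, 27.7, 26.6 and 26 in CM. These ranges lie within each other, and the change was -0.05 ± 0.07 with a 95% interval of -0.20 to 0.11 (edgeR adjusted p = 0.661). H2-DMb2 changed by -1.03 ± 0.25 (edgeR adjusted p = 0.00362), from 2.61, 4.44, 7.59 and 5.43 CPM to 2.76, 2.78, 1.79 and 2.62. That change rested on WT libraries 3 and 4: it was -1.55 with them alone (adjusted p = 3.35e-05) and -0.36 with libraries 1 and 2 alone (adjusted p = 0.275). With the most-counted exon alone it was -0.32 (adjusted p = 0.441). A single exon of H2-DMb2 (chr17:34150506-34150622) held 257 and 172 counts in WT control libraries 3 and 4 and 9 and 20 in libraries 1 and 2, and its part in the change was not tested. In H2-O, H2-Ob changed by -0.30 ± 0.17 (edgeR adjusted p = 0.172) and H2-Oa by -0.15 ± 0.45 (edgeR adjusted p = 0.841), with 95% intervals of -0.66 to 0.05 and -1.11 to 0.82 at these low levels.

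**Figure D2:**
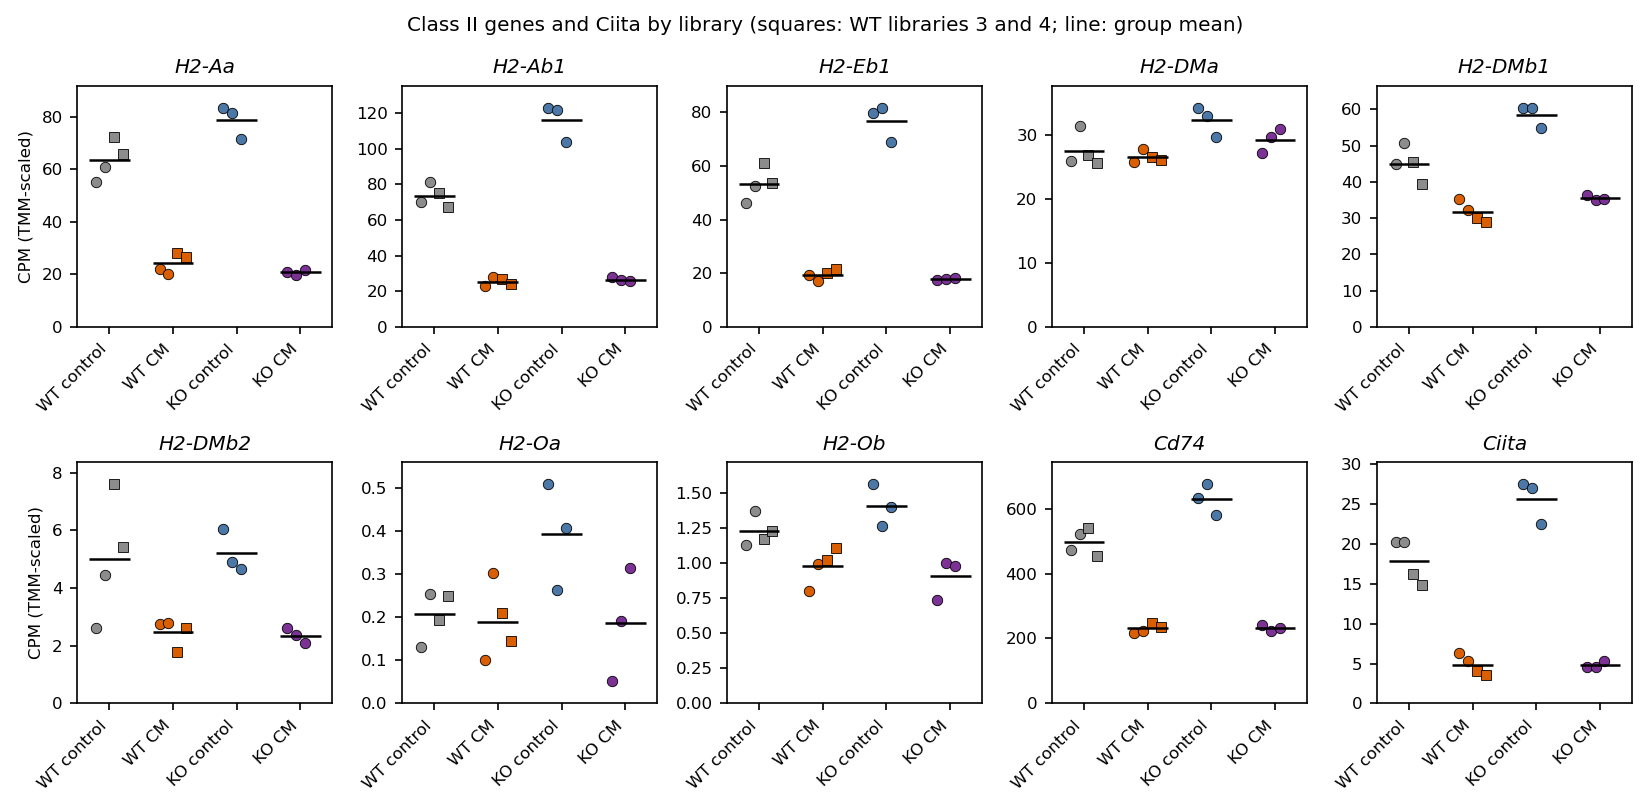
TMM-scaled CPM of each of the 10 genes in the 14 libraries, grouped as WT control, WT CM, KO control and KO CM, with a line at each group mean and squares for WT libraries 3 and 4. For H2-Ab1 the WT control libraries lie between 67.5 and 81.3, the KO control libraries between 104 and 123 and all CM libraries between 23.2 and 27.9; H2-DMa lies between 25.6 and 34.2 in every library.

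In Ezh2 KO macrophages CM again lowered the classical chains, Cd74 and Ciita, by 2.71- to 5.35-fold. Of the 10 members 8 were lower and 0 higher, where 18.2% of tested genes were lower and 20% higher. DESeq2 also gave 8 and 0, where it called 19.4% of genes lower, and 0 members were higher at an unadjusted p below 0.05. The median change was -1.29 over the members and -0.01 over all tested genes. H2-Ab1 stood at 123, 122 and 104 CPM in KO control libraries 1 to 3 and at 27.9, 26.3 and 25.5 in KO CM, a change of -2.13 ± 0.09 (edgeR adjusted p = 1.10e-10). H2-Eb1 went from 79.7, 81.7 and 68.8 CPM to 17.3, 17.9 and 18.3, a change of -2.10 ± 0.11 (edgeR adjusted p = 4.56e-10). H2-Aa went from 83.3, 81.4 and 71.5 CPM to 20.7, 19.9 and 21.8, a change of -1.92 ± 0.12 (edgeR adjusted p = 7.30e-09). The KO CM range of each of these 3 chains overlapped its WT CM range.

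Cd74 stood at 632, 675 and 580 CPM in KO control and at 242, 223 and 232 in KO CM (-1.44 ± 0.08, edgeR adjusted p = 1.26e-09). Ciita stood at 27.5, 27 and 22.5 CPM and at 4.52, 4.51 and 5.35 (-2.42 ± 0.19, edgeR adjusted p = 7.00e-08), again the change of largest size among the 10. H2-DMb1 fell too, with a log2 change of -0.72 ± 0.09 (edgeR adjusted p = 1.19e-05), as did H2-DMb2 with -1.15 ± 0.29 (edgeR adjusted p = 0.00527; -0.79 and 0.08 with the most-counted exon alone). H2-DMa stood at 34.2, 32.9 and 29.7 CPM in control medium and at 27.1, 29.6 and 30.9 in CM, and its change of -0.15 ± 0.08 did not pass (edgeR adjusted p = 0.198). H2-Ob passed at -0.63 ± 0.20 (edgeR adjusted p = 0.0191), but its adjusted p was 0.0744 without KO control library 1 and 0.0762 without KO CM library 1, and with the most-counted exon alone the estimate was 0.10 (0.842). H2-Oa had -0.99 ± 0.51 and did not pass (edgeR adjusted p = 0.143).

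**Figure D3:**
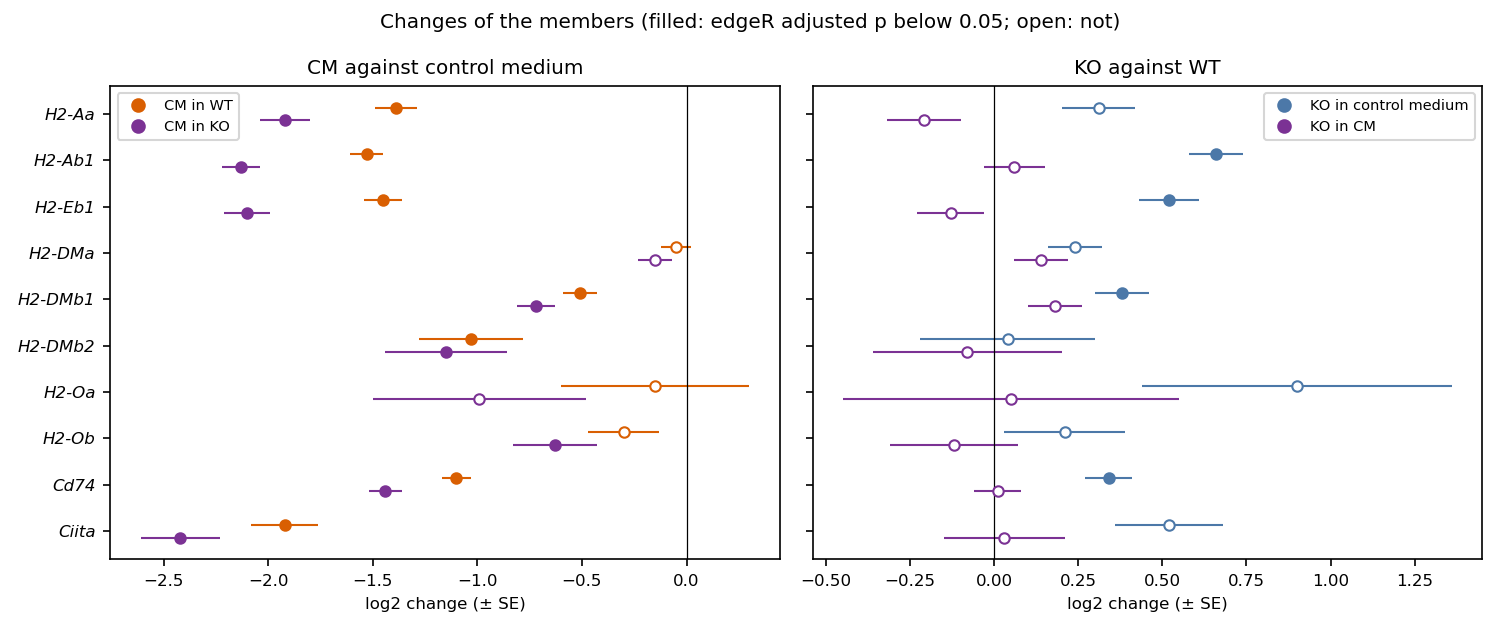
Log2 changes of the 10 genes with their standard errors, CM against control medium on the left (orange WT, purple KO) and KO against WT on the right (blue control medium, purple CM); filled points passed the edgeR test at adjusted p below 0.05. Ciita lies farthest to the left in both genotypes (-1.92 and -2.42), H2-DMa lies near 0, and no point of KO in CM is filled.

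The comparison of genotypes in control medium asked whether loss of Ezh2 changes the resting level. H2-Ab1, H2-Eb1, H2-DMb1 and Cd74 were higher in KO, by 1.27- to 1.58-fold. These 4 of the 10 members passed and 0 were lower, where 2.82% of tested genes were higher and 2.5% lower. DESeq2 gave 6 higher and 0 lower, where it called 5.32% of genes higher. Its calls added Ciita (DESeq2 adjusted p = 0.0256) and H2-DMa (0.0434), which edgeR did not call. At an unadjusted edgeR p below 0.05 there were 7 higher, where 12.5% of genes were, and 0 lower. The median over the members was 0.36 and over all tested genes 0. H2-Ab1 rose by 0.66 ± 0.08 log2 (edgeR adjusted p = 0.000371), with each of the 3 KO libraries (104 to 123 CPM) above each of the 4 WT libraries (67.5 to 81.3). H2-Eb1 rose by 0.52 ± 0.09 (edgeR adjusted p = 0.00589), from 46.2 to 61 CPM over WT to 68.8 to 81.7 over KO, again without overlap.

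Cd74 rose by 0.34 ± 0.07 (edgeR adjusted p = 0.015) and H2-DMb1 by 0.38 ± 0.08 (edgeR adjusted p = 0.0182). Both calls depended on single KO control libraries: without library 1 the adjusted p was 0.0588 for Cd74 and 0.0771 for H2-DMb1, and without library 2 it was 0.096 and 0.089. The count of higher members was then 2 in place of 4. With only the 2 groups compared in the fit the adjusted p was 0.0586 for Cd74 and 0.0542 for H2-DMb1, and with the most-counted exon alone Cd74 was 0.20 (0.416). Ciita stood at 0.52 ± 0.16 and missed the threshold (edgeR adjusted p = 0.0704), although its 3 KO libraries (22.5 to 27.5 CPM) lay above its 4 WT libraries (14.8 to 20.3). Leaving out WT control library 2 (adjusted p = 0.0397) or WT CM library 1 (0.0464) brought it past the threshold. H2-Aa stood at 0.31 ± 0.11 (edgeR adjusted p = 0.102) and H2-DMa at 0.24 ± 0.08 (edgeR adjusted p = 0.0886), and their WT and KO ranges overlapped. H2-DMb2 (0.04 ± 0.26, edgeR adjusted p = 0.938), H2-Ob (0.21 ± 0.18, edgeR adjusted p = 0.482) and H2-Oa (0.90 ± 0.46, edgeR adjusted p = 0.227) did not pass.

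Against WT libraries 1 and 2 alone, which group with the KO libraries in exon coverage, the differences in control medium were 0.62 for H2-Ab1 (adjusted p = 0.000817), 0.64 for H2-Eb1 (0.000503), 0.34 for Cd74 (0.00784), 0.30 for H2-DMb1 (0.0329) and 0.45 for H2-Aa (0.00407), where 2.2% of tested genes were higher. With WT libraries 3 and 4 alone the same genes gave 0.70 (1.37e-05), 0.42 (0.00069), 0.34 (0.002), 0.47 (0.000134) and 0.19 (0.0444), but 19.5% of all tested genes were then higher, and genotype and batch cannot be told apart there. H2-Ab1, H2-Eb1, Cd74 and H2-DMb1 passed with both sets of WT libraries as with all, whereas H2-Aa passed with each set but not with all WT libraries, and its size differed most. With the batch as a term over all libraries H2-Aa was 0.47 (adjusted p = 0.000341). Ciita was 0.34 (0.0975) against WT libraries 1 and 2 and 0.73 (0.000154) against 3 and 4.

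No member passed the test of genotype in CM: 0 of 10 passed in either direction with edgeR, 0 with DESeq2 and 0 at an unadjusted p below 0.05, where 3.1% of tested genes were higher and 1.49% lower (adjusted p below 0.05). The intervals were narrow for the abundant members: -0.12 to 0.25 log2 for H2-Ab1, -0.34 to 0.08 for H2-Eb1 and -0.15 to 0.16 for Cd74. They were -0.46 to 0.03 for H2-Aa and -0.36 to 0.41 for Ciita. With WT libraries 3 and 4 alone, where genotype and batch cannot be told apart and 17.7% of tested genes were lower and 17.8% higher, H2-Aa (-0.39, adjusted p = 0.00132) and H2-Eb1 (-0.23, 0.0475) passed as lower and H2-DMb1 (0.28, 0.00803) as higher. Against WT libraries 1 and 2 these were 0.00, -0.01 and 0.08 and did not pass.

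The test of whether the CM response differs between genotypes gave 0 of 10 members, and 0 of all tested genes, past the adjusted threshold with edgeR (0% in either direction). All 10 estimates were below 0, and 4 members were lower at an unadjusted p below 0.05, a level that 3.75% of tested genes reached in that direction. In edgeR's quasi-likelihood test they were H2-Ab1 (-0.60 ± 0.12, adjusted p = 0.149), H2-Eb1 (-0.65 ± 0.13, adjusted p = 0.149), H2-Aa (-0.53 ± 0.16, adjusted p = 0.375) and Cd74 (-0.33 ± 0.10, adjusted p = 0.381). DESeq2 called H2-Ab1 (adjusted p = 0.00244) and H2-Eb1 (0.00589), among 0.18% of genes lower. When the batch entered the fit as a term, edgeR called H2-Eb1 (adjusted p = 0.00373), H2-Aa (0.00943) and H2-Ab1 (0.0108), where 0.578% of genes were lower. With WT libraries 1 and 2 alone none passed, at adjusted p = 0.128, 0.0582 and 0.163 for H2-Ab1, H2-Eb1 and H2-Aa. Over these alternatives the estimates stayed between -0.45 and -0.65 for the 3 classical chains. With WT libraries 3 and 4 alone the same 3 passed, where 0.171% of genes were lower. Ciita had -0.50 ± 0.24 (adjusted p = 0.663), with a 95% interval of -1.02 to 0.02.

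**Figure D4:**
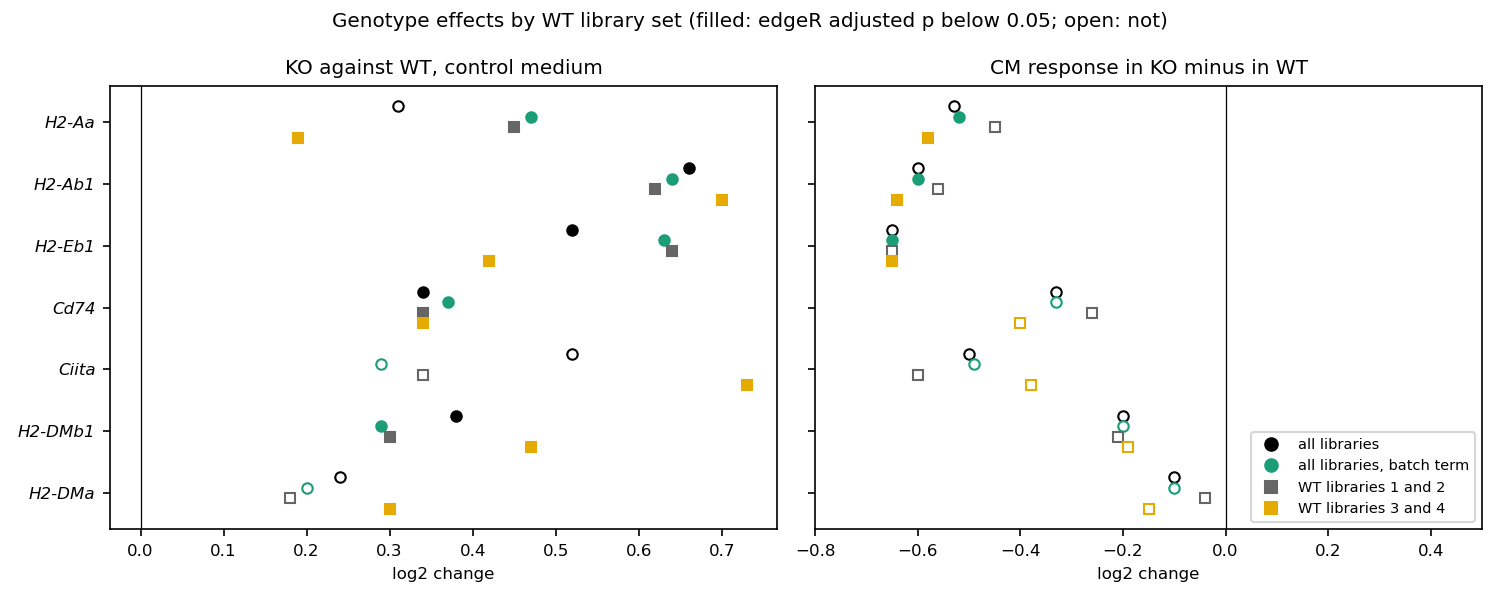
Log2 difference of KO from WT in control medium (left) and of the CM response in KO from that in WT (right) for 7 genes, estimated from all libraries, from all with a batch term, and with WT libraries 1 and 2 or 3 and 4 alone; filled points have an edgeR adjusted p below 0.05. The right-hand values of H2-Aa, H2-Ab1 and H2-Eb1 lie between -0.45 and -0.65 in each set, filled with the batch term and with WT libraries 3 and 4.

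Because the chains work in complexes, ratios between members were set side by side per exon length. The size of a ratio depends on the summed exon lengths, whereas its change between groups does not. These 5 ratios were chosen after the data had been seen, and 20 tests were made. In WT the ratio of H2-DMa to H2-DMb1 was 0.36 in control medium and 0.50 in CM (geometric means), and in KO 0.33 and 0.49. The H2-Ab1 to H2-DMb1 ratio went from 1.76 to 0.87 in WT and from 2.14 to 0.80 in KO. By these lengths the classical chain was above the loader chain in control medium and below it in CM. The ratio of Cd74 to H2-Ab1 rose from 5.69 to 7.68 in WT and from 4.57 to 7.37 in KO, without overlap of the groups. The partners H2-Aa and H2-Ab1 had a ratio of 0.91 in control medium and 1.00 in CM in WT (exact two-sided permutation p = 0.457), with overlapping groups. In KO it was 0.72 and 0.83, without overlap, and the KO control libraries also lay below the WT control libraries without overlap (exact permutation p = 0.0571, the smallest that 3 against 4 libraries allow). The WT control libraries split by the inferred batch, at 0.83 and 0.79 in libraries 1 and 2 and 1.01 and 1.03 in 3 and 4. The KO control libraries stood at 0.71 to 0.72, so the size of this difference depends on the WT libraries used. The ratio of H2-Ab1 to Ciita was 21.05 and 27.64 in WT, with overlap, and 23.08 and 28.31 in KO, without. With 4 against 4 libraries the smallest p possible is 0.0286, reached in WT by the ratios of H2-DMa to H2-DMb1, of Cd74 to H2-Ab1 and of H2-Ab1 to H2-DMb1. With 3 against 3 it is 0.1, and no ratio passed after adjustment over the 20 exact permutation tests (smallest adjusted p = 0.163).

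Ciita is read from alternative first exons, each with its own promoter. The dendritic-cell type first exon (promoter I) is the most upstream, the B-cell type (promoter III) and the interferon gamma-inducible type (promoter IV) follow. Counts fell on an exon at the place of promoter III (chr16:10488178-10488424), an exon at the place of promoter IV (chr16:10489781-10489864) and an exon longer than both. The place of the promoter IV exon was taken as the most upstream annotated Ciita exon of its length, which is an inference. A further exon that stood before the shared exon in some entries (chr16:10493647-10493874) held 0 to 5 counts in a library and is left out of the shares given here. The length of the exon longer than the promoter III and promoter IV exons is in no exon of the GENCODE M21 annotation. It was given to the most upstream first exon by elimination. Its place is therefore an inference, and it is called the longest first exon here. It held 11, 24, 30 and 23 counts in WT control libraries 1 to 4 and 7, 0, 1 and 2 in WT CM libraries. It held 38, 41 and 29 counts in KO control and 9, 1 and 1 in KO CM. The promoter III exon held 9, 10, 5 and 6 counts in WT control, 2, 6, 1 and 0 in WT CM, 22, 16 and 10 in KO control and 5, 2 and 4 in KO CM. The promoter IV exon held 6, 3, 5 and 6 counts in WT control, 0, 6, 4 and 5 in WT CM, 8, 11 and 4 in KO control and 1, 0 and 1 in KO CM.

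Of the first-exon counts the longest first exon made up 63.8% in WT control (88 of 138, exact 95% interval 55.2% to 71.8%), 29.4% in WT CM (10 of 34, 15.1% to 47.5%), 60.3% in KO control (108 of 179, 52.8% to 67.6%) and 45.8% in KO CM (11 of 24, 25.6% to 67.2%). The promoter IV exon made up 14.5% in WT control (9.1% to 21.5%) and 44.1% in WT CM (27.2% to 62.1%), against 12.8% (8.3% to 18.7%) and 8.3% (1.0% to 27.0%) in KO. The intervals are Clopper-Pearson and cover counting error only, and counts are pooled over the libraries of a group. The CM shares of the longest exon rested on library 1 of each group: without WT CM library 1 the share was 12.0% (3 of 25, 2.5% to 31.2%) and without KO CM library 1 it was 22.2% (2 of 9, 2.8% to 60%). The promoter IV counts in WT CM were in libraries 2 to 4 and in none of library 1. These shares are a description with no test, and the CM groups hold few counts.

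**Figure D5:**
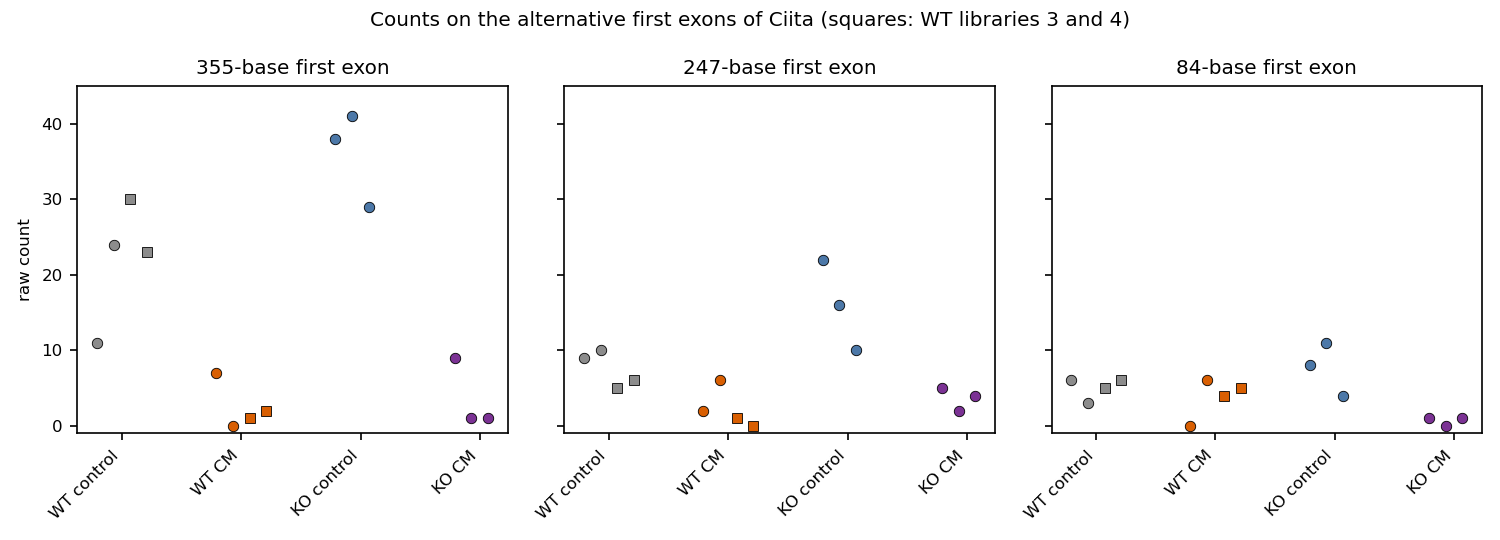
Raw counts on the longest (left), promoter III (middle) and promoter IV (right) first exons of Ciita in each of the 14 libraries, by group, with squares for WT libraries 3 and 4. The longest exon holds 11 to 41 counts in the control libraries and 0 to 9 in the CM libraries, and the promoter IV exon 0 to 11 throughout.

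Cd74 has an alternative exon (chromosome 18, 60811294 to 60811485) that makes the longer p41 form of the invariant chain, which carries a thyropin domain that inhibits cathepsins. It took 1.80% to 2.39% of Cd74 counts in WT control, 1.61% to 2.38% in WT CM, 2.27% to 2.51% in KO control and 2.10% to 2.47% in KO CM. The range over all groups overlapped, while total Cd74 differed by more than 2-fold between media.

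The genes around the members were taken from lists made with earlier results of these data known. In the promoter complex on which Ciita docks (RFX, NF-Y and Creb1, 7 genes), 0 were higher and 0 lower in WT CM by edgeR, and the 95% interval of Rfx5 was -0.23 to 0.12. In KO CM against KO control 1 was higher (Nfyc, 0.31 ± 0.09, adjusted p = 0.0157) and 1 lower (Nfya, -0.24 ± 0.06, adjusted p = 0.00273). Of 4 Ciita coactivators 1 was higher in CM, the acetyltransferase Kat2b (0.24 ± 0.05 in WT, edgeR adjusted p = 0.00111; 0.35 in KO). Of 12 genes upstream of Ciita, 4 were lower and 1 higher in WT CM and 4 lower and 3 higher in KO CM, with medians of -0.03 and -0.01. Of all tested genes 18% were lower and 19.3% higher in WT CM, and 18.2% and 20% in KO CM. Whether the counts among these 12 genes differ from those shares was not tested. Ifngr1, the ligand-binding receptor chain, was -0.30 ± 0.05 in WT and -0.55 in KO. Prdm1, a repressor that can act on Ciita promoters, was -1.34 ± 0.12 in WT (adjusted p = 3.49e-07) and -1.53 in KO.

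Interferon gamma-induced genes did not share 1 direction in CM. Of 14 tested, 5 were higher and 6 lower in each genotype. The shares over all tested genes were 19.3% higher and 18% lower in WT CM, and 20% and 18.2% in KO CM. The guanylate-binding proteins Gbp7 (1.05 ± 0.05, edgeR adjusted p = 1.29e-10) and Gbp6 (1.01 ± 0.12) rose in WT CM. The 6 that fell, named after their values were seen, were Cxcl9 (-3.59), Tgtp1 (-1.02), Iigp1 (-0.95), Irgm2 (-0.55), Igtp (-0.54) and Irgm1 (-0.51), a chemokine and immunity-related GTPases. The antigen processing list, which holds proteases and the thiol reductase Ifi30, was also mixed, with 6 of 10 higher and 4 lower in each genotype. In WT CM Ctsl rose by 1.12 ± 0.04 log2 (from 1820 to 1940 CPM to 4040 to 4100), Ctsc by 1.18 ± 0.04 and Ctsd by 0.91 ± 0.04. Ctss, the cathepsin that trims the invariant chain in antigen-presenting cells, was -0.25 ± 0.09 (edgeR adjusted p = 0.0357), and leaving out any of WT control 3 or 4 or WT CM 1 or 2 took its adjusted p above 0.05. Cd83, which protects surface class II from ubiquitin-driven turnover, fell from 35.8 to 39.2 CPM to 12 to 13.1 in WT (-1.62 ± 0.11, edgeR adjusted p = 1.47e-08), with -1.67 in KO. The list of class II turnover genes that holds Cd83 has 3 genes, the others being Marchf1 and Marchf8. In WT CM 1 of the 3 was lower and 0 higher, and in KO CM 1 was lower and 1 higher.

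Of 5 tested neighbours in the class II region, 0 were higher and 1 lower in WT CM and 2 were lower in KO CM. Of all tested genes 18% were lower in WT CM and 18.2% in KO CM. Brd2, a chromatin reader, was -0.25 ± 0.04 in WT (edgeR adjusted p = 8.01e-05), with -0.20 in KO. H2-Eb2 had 0 to 3 counts per group, and H2-Ea none.

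Between genotypes few genes of these lists passed. In control medium Psmb9, an immunoproteasome subunit encoded in the class II region, was higher in KO (0.47 ± 0.13, edgeR adjusted p = 0.0463), in the direction of the class II members called there. Ctsl (-0.25 ± 0.05, edgeR adjusted p = 0.00648), Ctss (-0.35 ± 0.10, 0.0488) and Gbp7 (-0.22 ± 0.05, 0.0237) were lower. In CM Rfx5, a subunit of the RFX complex, was higher in KO (0.38 ± 0.09, edgeR adjusted p = 0.0264). Nfya (-0.20 ± 0.05, edgeR adjusted p = 0.0408), Ifngr1 (-0.19 ± 0.05, 0.046), Ctss (-0.40 ± 0.10, 0.0321) and Ctsh (-0.33 ± 0.06, 0.00535) were lower. Apart from Ctsl and Ctsh, each of these calls was lost when at least 1 single library was left out.

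Dendritic and B cells are the other common sources of class II RNA. The 9 dendritic cell markers summed to 14.8 to 19.5 CPM in WT control, 18.4 to 22.9 in WT CM, 14 to 16 in KO control and 16.8 to 18.1 in KO CM. Kmo, which did not pass the test with CM, carried most of that sum (mean 15.6, 17.3, 12.5 and 14.1 CPM in that order). Of 7 markers tested in WT CM, 2 were higher, Cd209a (6.08 ± 0.62, edgeR adjusted p = 1.10e-06, mean 0.0179 CPM in control medium and 1.67 in CM) and Batf3 (1.15 ± 0.26, 0.00285), and 2 were lower, Flt3 and Dpp4. In KO CM Cd209a (5.07) and Batf3 (0.95) were again higher and Flt3 lower. For all tested genes the shares were 19.3% higher and 18% lower in WT CM, and 20% and 18.2% in KO CM. Flt3, a receptor of dendritic cell progenitors, was at 0 in every CM library of both genotypes and at a mean of 0.16 CPM in WT control and 0.279 in KO control. Zbtb46 had a mean of 0.089, 0.158, 0.126 and 0.0498 CPM in WT control, WT CM, KO control and KO CM. Ccr7 was at 0 in KO CM. The 8 B cell markers summed to between 0.741 and 2.43 CPM over all groups, and 4 of them (Pax5, Ebf1, Blk and Fcmr) were at 0 in all 14 libraries. Monocyte markers summed to 48.1 to 59.3 CPM in WT control, 200 to 263 in WT CM, 53.9 to 61.4 in KO control and 261 to 299 in KO CM, and neutrophil markers to 0.76 to 1.52, 3.85 to 5.44, 0.964 to 2.49 and 3.19 to 5.06. Both sums were higher in CM, where 7 or 8 class II members were lower. The neutrophil sum in CM was mostly Prtn3 (mean 3.45 CPM in WT CM and 3.23 in KO CM), while S100a9, a defining neutrophil gene, had 0.595 and 0.511 CPM in WT and was lower in KO CM (-3.01, edgeR adjusted p = 0.00846). Of the monocyte markers 4 of 5 were higher in each genotype, among them Ccr2 and Vcan, and Ly6c2 did not pass. The part of any of these cell types in the class II result was not tested.

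The genes whose pattern over the 14 libraries lay closest to the mean of H2-Aa, H2-Ab1, H2-Eb1 and Cd74 were Zmynd15 (root mean square distance 0.15 log2), Kcnj10 (0.15), Cxcl16 (0.17), Engase (0.17) and Arl4c (0.18). The pattern itself had an SD of 0.82. Cxcl16 changed by -1.30 in WT CM and -1.56 in KO CM and Zmynd15 by -1.55 and -1.79. Closest to Ciita were Itgal (0.16), Abhd15 (0.17), Rhbdf1 (0.21), Adam22 (0.24) and Ctla2a (0.25), where H2-Ab1 lay at 0.28 and Ciita had an SD of 1.10. Among the members, H2-DMa (0.77), H2-Oa (0.75) and H2-Ob (0.60) were the farthest from the class II mean. Likeness is a description over libraries that share the CM groups, with no test.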

How the data were processed

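RNA was sequenced from 14 libraries of WT or Ezh2 KO macrophages in control medium or CM (stranded mRNA kit, 150-base paired reads). The deposited table holds raw read counts per exon. The aligner was HISAT2 and the build mm10, per the submitters' processing notes. The counting tool and its strand setting are not given in the sources used here. The table's 427386 entries include 196941 repeats of an exon of the same gene, which hold 48.6% of the counts, and only the 230445 distinct exons were summed per gene. A read that spans exons may count on each.

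Counts per gene were tested with edgeR 4.0.16 (limma 3.58.1, R 4.3.3): TMM factors, filterByExpr (minimum count 10), a quasi-likelihood F test on 4 group means over 14 libraries, Benjamini-Hochberg adjustment over 13311 genes and a threshold of 0.05. DESeq2 1.42.0 was an alternative. Log2 CPM used a prior count of 2. On simulated counts of 13177 genes with 100 changed 2-fold, 84% were recovered for the interaction, and 42% of 100 changed 1.5-fold. The simulated counts held no separate library batch and no medium effect besides the planted changes. Both sets of changes were planted together, in genes above a minimum level. These rates may therefore not hold for the members. No 2 libraries agreed within sampling noise. Same-numbered WT libraries correlated by 0.33 to 0.47 in their deviations from the group means, but so did libraries of the same batch across numbers (0.31 to 0.46), and KO libraries by -0.04 to 0.05. These ranges overlap, so the correlations cannot tell pairs of WT libraries from the batch. A replicate block in the fit changed no member's call.

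The members and gene lists were chosen with earlier results of these data known, as were the library batch and its alternatives. The text names Ezh2, the 10 members, up to 3 genes of each list by smallest p in a comparison (marker genes wherever their level is given), and the 5 genes nearest in pattern to the class II mean and to Ciita. Alternatives covered scaling, the filter, exon entries, the fitted groups, the batch, the block, DESeq2 and each library left out. Promoter sequences come from RefSeq (GRCm38.p6).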

Additional observations from a re-analysis of the deposited data

Results flagged for a closer look

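H2-DMb2 in WT CM library 3 was at 1.79 CPM, against 2.62 to 2.78 in the other 3 WT CM libraries. The gap to its nearest neighbour was 0.838 of the range of the group, above Dixon's critical value for 4 samples. Chance flags about 1 in 20 groups, and 10 members were examined in 2 groups of 4.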

How the results depend on the processing

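All 7 lower calls in WT CM held with each library left out; in KO CM there were 7 or 8. Higher members in KO control medium numbered 4, but 2 with only the groups compared, 7 with WT libraries 3 and 4 alone, and 2 to 6 with a library left out, 2 without KO control library 1 or 2. In CM, KO against WT gave 2 lower and 1 higher with WT libraries 3 and 4 alone. In the interaction 2 were lower with DESeq2, 3 with the batch term and 3 with WT libraries 3 and 4. With the replicate block Cd74 in KO against WT in CM was -0.01 and Ciita -0.06, and no member's call changed.

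Estimates that changed sign were all uncalled in that setting. With WT libraries 3 and 4 alone H2-DMa was 0.01 in WT CM, H2-DMb2 -0.32 in KO control medium, 0.08 in KO CM against WT CM and 0.40 in the interaction, and Cd74 -0.06 in KO CM against WT CM. With WT libraries 1 and 2 H2-Oa was 0.08 in WT CM and -0.06 in KO against WT in CM, H2-Ob 0.03 and Ciita -0.25. With the batch term H2-DMb2 was 0.09 and Ciita -0.20 in KO against WT in CM. With the most-counted exon H2-Ob was 0.10 in KO CM (called lower otherwise), -0.13 in KO control medium, 0.04 in KO against WT in CM and 0.17 in the interaction; H2-Aa 0.03, H2-DMb2 0.26 and Cd74 -0.31 in KO against WT in CM; and H2-DMa 0.01 in the interaction. With a library left out the ranges of estimates that crossed 0 were H2-DMa -0.08 to 0.02 in CM in WT, H2-Oa -0.41 to 0.01 in CM in WT, H2-DMb2 -0.17 to 0.31 in KO in control medium, H2-DMb2 -0.21 to 0.01 in KO in CM, H2-Oa -0.59 to 0.44 in KO in CM, Cd74 -0.02 to 0.04 in KO in CM, Ciita -0.10 to 0.18 in KO in CM and H2-DMb2 -0.39 to 0.09 in interaction.

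Library totals in place of TMM moved the median of all genes to -0.09 in WT CM, with 1957 genes higher and 3501 lower (35.9% higher, against 51.8%). Depth limits H2-Oa, H2-Ob and the Ciita first exons. The causes were not tested.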
